A study of Mus musculus with 16 samples.

Results

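Genes that p53 is known to switch on, and whose products arrest the cell cycle or feed back on p53, were followed in the embryonic mouse cortex after deletion of *Knl1*. These are *Cdkn1a*, *Ccng1*, *Mdm2*, *Ppm1d*, *Btg2*, *Plk2*, *Sesn1*, *Sesn2*, *Zmat3* and *Trp53inp1*, 10 of the 51912 genes listed in the count files. They were chosen by name, and each matched 1 row. Whole cortex at embryonic day (E) 15.5 of 15 mice was measured in 16 libraries by RNA-seq with unique molecular identifiers (UMIs). The ctrl group had 7 mice, of which mice 2, 6, S1, S3 and T3 were wild type for *Knl1* (named *Casc5* in the labels) and mice T4 and T5 were heterozygous. The cKO group had 4 mice, 5, 7, S2 and F3, in which *hGFAP-Cre*, a transgene with the human *GFAP* promoter that recombines in cortical neural progenitor cells (NPCs), deleted *Knl1*. The dKO group had 4 mice, T2, T8, F1 and F7, in which the same Cre deleted *Knl1* and *Trp53*. The labels do not give the Cre or *Trp53* state of the ctrl mice. Cells outside the *hGFAP-Cre* lineage, such as microglia and vessels, keep both genes and are part of each sample. Levels are given as CPM, the counts of a gene per 1e6 counts of its mouse after TMM normalization. Differences are log2 fold changes from edgeR likelihood ratio tests over all listed genes, and the FDR is the Benjamini–Hochberg adjusted *p* over all of them.

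*Knl1* encodes a kinetochore scaffold that chromosomes need to attach and segregate correctly in mitosis. Missegregation and DNA damage stabilize p53, a transcription factor that binds paired half-sites near its targets and raises their transcription. *Cdkn1a* encodes p21, the inhibitor of cyclin-dependent kinases through which p53 holds cells before S phase. *Mdm2*, a ubiquitin ligase for p53, and *Ppm1d*, a phosphatase that removes activating phosphates from the pathway, close negative feedback loops on p53. In the embryonic cortex this response is known for the loss of progenitors in several microcephaly models.

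Totals ran from 399832 to 3266227 counts for a ctrl mouse, from 4178461 to 8800987 for a cKO mouse and from 552186 to 5396803 for a dKO mouse. No ctrl mouse was sequenced as deeply as the shallowest cKO mouse, so depth and genotype cannot be told apart in that comparison. In the cKO versus dKO comparison the depths overlapped through dKO mouse F7 alone, which had more counts than cKO mice 5, 7 and F3. The dKO mice T2, T8 and F1 had fewer counts than any cKO mouse. Of the 3 library batches, the first had mice 5, 7 and S2 of cKO with 2, 6 and S3 of ctrl, the second S1 alone, and batch 3 the remaining 8 mice, all dKO mice among them. Litter 4, with F3, F1 and F7, had no ctrl mouse and was the only litter with both cKO and dKO mice. Of the cKO mice, only F3 shared a batch with dKO mice. Genotype can thus be told apart from batch and litter in cKO versus dKO only through F3. The 2 libraries of cKO mouse S2 were added together and count as 1 mouse. *Knl1* (33.4 to 58.2 CPM in dKO, 50.0 to 80.4 CPM in cKO, 48.7 to 80.0 CPM in ctrl) and *Trp53* (19.8 to 32.3 CPM in dKO, 15.6 to 47.0 CPM in ctrl) overlapped between genotypes. Gene-level counts include RNA from outside the deleted parts and from cells without Cre, so they do not check the labels. Among markers of cortical cells, *Sox2* and *Tubb3* are listed at 0 in every mouse, while the other 7 radial glia markers and 6 excitatory neuron markers had counts. The study stained SOX2-positive progenitors in cortex of this age, so the 0 of *Sox2* cannot be read as absence from the cells. The cause of the 0 values was not tested.

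The DNA before the starts of these genes was searched for p53 half-sites. RefSeq (GRCm38.p6) gave a window for 8 of the 10 genes, and none was given for *Zmat3* and *Trp53inp1*. The 250 bases before each start were compared with the p53 half-site consensus, a run of 10 bases made of purines, a central C, A or T bases, a G and pyrimidines. The consensus reads the same on both strands. A pair was counted where 2 half-sites were at most 13 bases apart. Of the 32851 windows of all genes, 7.13% held a half-site, 0.0639% held a pair without mismatch and 0.505% held a pair with at most 1 mismatch outside the fixed C and G. *Cdkn1a* has 2 starts 2790 bases apart. The window of its upstream start, chr17:29090729-29090978 on the plus strand, held 2 half-sites, at −73 and −51, and a 10-base neighbour with 1 mismatch at −41. It was 1 of 21 windows with a pair without mismatch. The *Ccng1* window, chr11:40755287-40755536 on the minus strand, held a half-site at −185 directly preceded by one with 1 mismatch at −195. Windows of *Mdm2* (half-site at −186, chr10:117710759-117711008, minus strand), *Ppm1d* (at −132) and the second start of *Sesn1* (at −173) held a single half-site and no pair. Windows of *Btg2*, *Plk2*, *Sesn2*, the first start of *Sesn1* and the downstream start of *Cdkn1a* held none. The *Plk2* window was chr13:110394794-110395043 on the plus strand. A match is a sequence description and not a measured binding site, and p53 sites in introns or farther away lie outside these windows. The windows of 4 genes are shown, *Cdkn1a* and *Ccng1* because both were higher in cKO than in dKO, *Mdm2* because it held a half-site and its levels overlapped in all groups, and *Plk2* because it held none and was high in litter 4 of either genotype. Capitals mark half-sites and the neighbours with 1 mismatch.
Cdkn1a: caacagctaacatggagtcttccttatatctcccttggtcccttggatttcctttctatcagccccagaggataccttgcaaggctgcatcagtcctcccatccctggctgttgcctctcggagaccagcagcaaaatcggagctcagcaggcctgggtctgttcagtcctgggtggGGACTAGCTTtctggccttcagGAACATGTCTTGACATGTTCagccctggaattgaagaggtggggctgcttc
Ccng1: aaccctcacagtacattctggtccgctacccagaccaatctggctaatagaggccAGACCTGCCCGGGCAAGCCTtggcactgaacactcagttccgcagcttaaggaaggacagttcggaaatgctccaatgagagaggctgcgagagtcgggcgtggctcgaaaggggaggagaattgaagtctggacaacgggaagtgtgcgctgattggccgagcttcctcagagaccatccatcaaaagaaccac
Mdm2: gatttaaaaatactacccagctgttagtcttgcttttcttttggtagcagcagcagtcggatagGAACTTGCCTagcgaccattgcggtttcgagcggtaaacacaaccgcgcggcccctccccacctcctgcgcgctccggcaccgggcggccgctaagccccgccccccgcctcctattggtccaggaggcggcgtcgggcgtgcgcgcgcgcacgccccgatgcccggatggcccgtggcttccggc
Plk2: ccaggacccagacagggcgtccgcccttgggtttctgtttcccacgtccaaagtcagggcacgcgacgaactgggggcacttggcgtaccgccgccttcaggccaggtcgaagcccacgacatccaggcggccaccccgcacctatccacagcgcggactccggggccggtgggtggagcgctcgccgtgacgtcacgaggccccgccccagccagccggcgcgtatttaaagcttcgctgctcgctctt

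**Figure D1:**
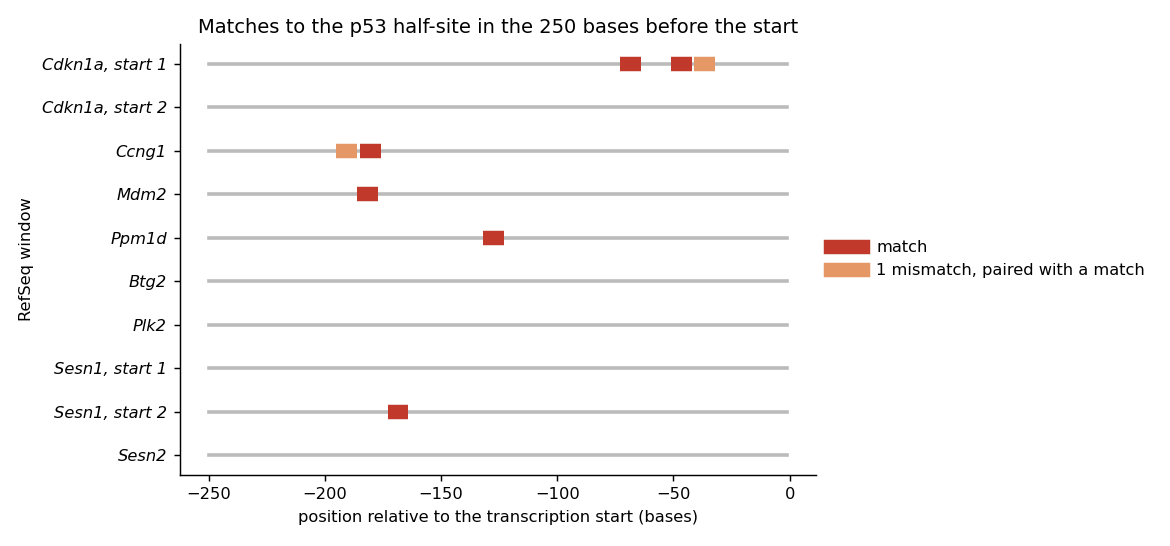
Position of matches to the p53 half-site consensus in the 250 bases before each RefSeq start of 8 of the genes (x axis, bases relative to the start). Red blocks are matches and orange blocks have 1 mismatch and pair with a match; *Cdkn1a* (upstream start) and *Ccng1* are the windows that hold a pair.

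*Cdkn1a* was the gene of the 10 with the largest difference between genotypes, and *Ccng1* went with it. Both were higher in cKO than in ctrl and higher in cKO than in dKO, and for neither did dKO and ctrl differ at an FDR below 0.05. *Cdkn1a* (ENSMUSG00000023067.13) spans bases 29090976 to 29100727 of chromosome 17 (GRCm38, plus strand). The level was 0, 3.17, 2.71, 1.54, 0, 4.70 and 0 CPM in the ctrl group, taken in the order 2, 6, S1, S3, then T3 to T5. In cKO mice 5, 7, S2 and F3 it was 8.94, 9.50, 6.03 and 7.50 CPM. In dKO mice T2, T8, F1 and F7 it was 1.66, 0.924, 2.11 and 2.13 CPM. The lowest cKO mouse was higher than any mouse of the other groups. These are small counts, between 33 and 53 per cKO mouse, 0 and 10 per ctrl mouse and 1 and 11 per dKO mouse. The 3 ctrl mice without a count, 2, T3 and T5, are shallow, and 0 counts allow up to 5.04, 7.00 and 6.67 CPM in them (3 counts, counting error only). Pooled over mice without TMM scaling, the level was 7.23 CPM in cKO (exact Poisson 95% interval 6.18 to 8.41, counting error only), 2.44 CPM in ctrl (1.54 to 3.65) and 1.91 CPM in dKO (1.16 to 2.94).

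The log2 fold change of *Cdkn1a* in cKO versus ctrl was 1.70 (95% interval 0.96 to 2.44), a 3.25-fold difference, with an edgeR FDR of 0.00366. In cKO versus dKO it was 2.01 (1.22 to 2.80), 4.04-fold, with an edgeR FDR of 0.00041. The exact permutation test over mice gave *p* = 0.00606 for cKO versus ctrl and *p* = 0.0286 for cKO versus dKO, in both cases the smallest it can give. In dKO versus ctrl it was −0.26 (−1.44 to 0.91), with an edgeR FDR of 1, and the interval reaches a 1.89-fold increase. In RNA from a whole tissue, fewer cells with a transcript and less transcript per cell cannot be told apart. Without the mice of under 600000 counts (2, T3, T5 and T2), the log2 fold change in cKO versus ctrl was 1.45 (edgeR FDR of 0.0408) and in cKO versus dKO 1.99 (edgeR FDR of 0.00102). The dKO mouse F7, deeper than 3 of the cKO mice, was at 2.13 CPM. With all mice thinned to 399832 counts, the values were 1.56 and 2.57, each with an edgeR FDR of 1. The depth of the cKO mice moved with this gene and its part was not tested. The 2 libraries of mouse S2 held 36 and 17 *Cdkn1a* counts, a CPM ratio of 0.474, while the ratio was between 0.898 and 1.16 for the other 9 genes.

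*Ccng1* (ENSMUSG00000020326.7, chromosome 11 from 40748552 to 40755311) encodes cyclin G1, a p53 target that recruits a phosphatase to the Mdm2 protein. In the 7 ctrl mice, in the same order as above, it was at 6.72, 10.1, 14.1, 15.4, 23.3, 5.65 and 17.8 CPM. Levels in cKO mice 5, 7, S2 and F3 were 24.2, 25.8, 20.2 and 21.1 CPM. Levels in dKO mice T2, T8, F1 and F7 were 9.95, 5.54, 10.3 and 9.51 CPM. The cKO mice lay within 20.2 to 25.8 CPM, above every dKO mouse, while the shallow ctrl mouse T3, with 10 counts, lay among them. The log2 fold change was 0.86 (0.43 to 1.28) in cKO versus ctrl, at an edgeR FDR of 0.0427, and leaving out any of ctrl mice 2, 6, S1 and T4 or cKO mice 5, 7 and F3 raised the FDR above 0.05, to between 0.0634 and 0.366 at values of 0.74 to 0.90. In cKO versus dKO it was 1.31 (0.87 to 1.75), 2.48-fold, at an edgeR FDR of 2.7e-05. In dKO versus ctrl it was −0.45 (−1.06 to 0.15), at an edgeR FDR of 1. By litter, *Ccng1* reached 24.2 and 25.8 CPM in cKO against 6.72 and 10.1 CPM in ctrl in litter 1. Litter 2 had 20.2 CPM in cKO against 14.1 and 15.4 CPM in ctrl, and litter 4 had 21.1 CPM in cKO against 9.51 and 10.3 CPM in dKO. In each of these litters the cKO mice were the higher ones.

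Both genes were also compared within batches and litters. With batch as a covariate, the cKO versus ctrl value was 1.76 for *Cdkn1a* (edgeR FDR of 0.00944) and 0.90 for *Ccng1* (edgeR FDR of 0.0803), and with litter it was 1.67 (edgeR FDR of 0.00734) and 0.92 (edgeR FDR of 0.0222). In cKO versus dKO, batch as a covariate gave 1.95 (edgeR FDR of 0.762) and 1.21 (edgeR FDR of 0.533). Within batch 1 (3 cKO and 3 ctrl mice) the log2 fold change was 1.85 for *Cdkn1a* and 1.02 for *Ccng1*, and neither had an edgeR FDR below 0.05 (0.0926 and 0.184). Within batch 3, F3 alone against the 4 dKO mice gave 1.98 and 1.23, with an edgeR FDR of 1 for both, the lone cKO mouse being assumed to vary like the dKO mice. With litter as a covariate, the cKO versus dKO value was 1.82 for *Cdkn1a* (edgeR FDR of 0.337) and 1.12 for *Ccng1* (edgeR FDR of 0.221). Without litter 4, it was 2.69 (edgeR FDR of 0.199) and 1.67 (edgeR FDR of 0.0356). DESeq2 gave *Cdkn1a* an adjusted *p* of 0.0637 in cKO versus dKO and *Ccng1* one of 0.0823 in cKO versus ctrl. The direction was higher in cKO for both genes in every alternative run.

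**Figure D2:**
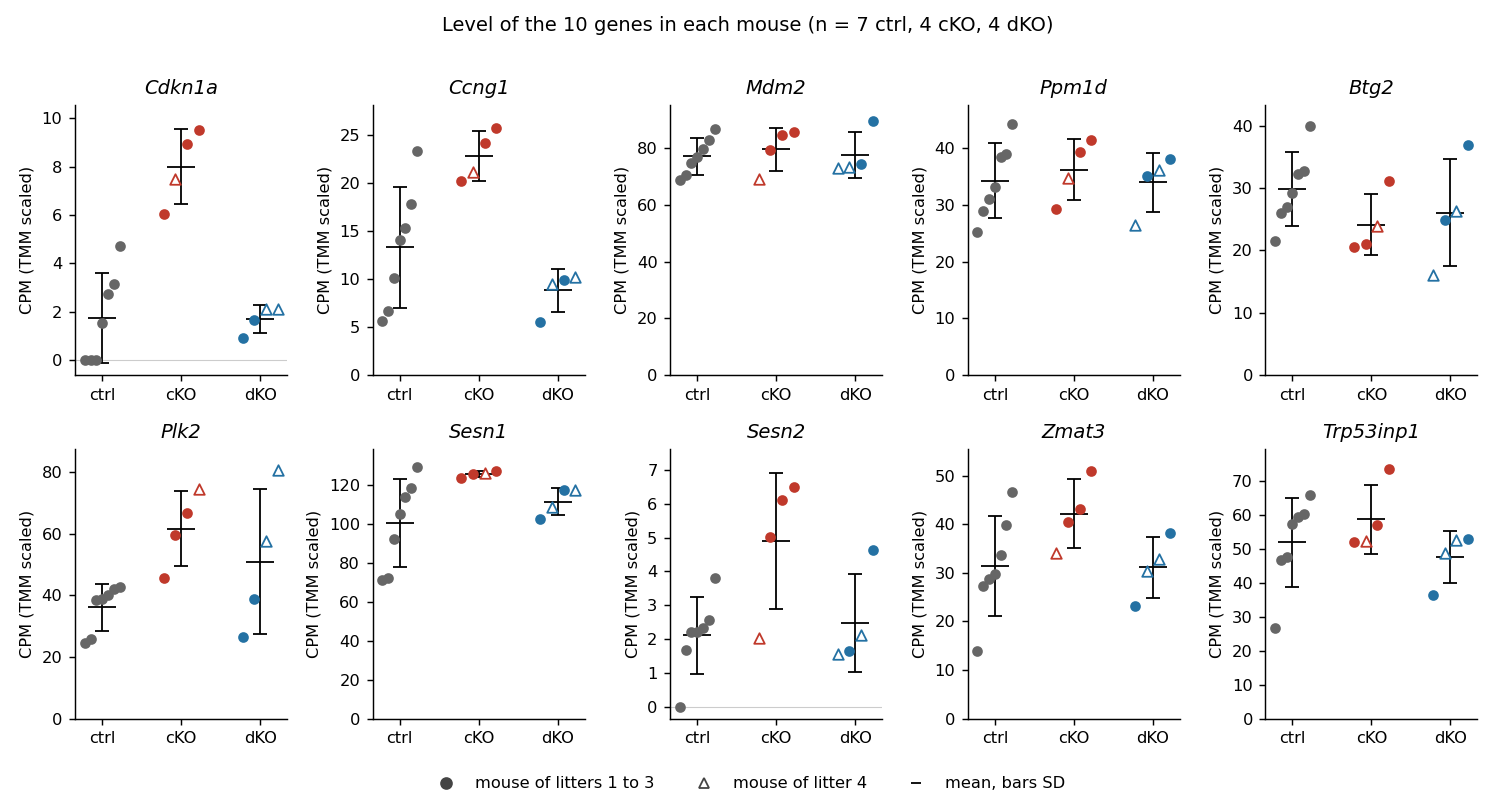
Level of each of the 10 genes (y axis, TMM-scaled CPM from 0 upward) in each ctrl, cKO and dKO mouse; points are mice, triangles are mice of litter 4, and bars are mean and SD. Observed *Cdkn1a* levels separate cKO from both other groups, but 0 counts in ctrl mice T3 and T5 allow up to 7.00 and 6.67 CPM. *Plk2* is high in all 3 mice of litter 4, and *Mdm2* overlaps in all groups.

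*Plk2* (ENSMUSG00000021701.7, chromosome 13 from 110395046 to 110400844) encodes polo-like kinase 2, a stress and activity inducible kinase of centriole duplication and synapses. It was higher in cKO than in ctrl, and it was high in all 3 mice of litter 4, cKO and dKO alike. The ctrl mice had levels of 42.0, 42.7, 40.2, 38.9, 25.7, 38.6 and 24.5 CPM. Levels were 66.6, 59.5, 45.6 and 74.3 CPM in cKO mice 5, 7, S2 and F3. Levels were 26.5, 38.8, 57.7 and 80.5 CPM in dKO mice T2, T8, F1 and F7. The cKO and ctrl ranges were apart, yet the 2 dKO mice of litter 4, F1 and F7, were as high as cKO mice and the 2 of litter 3 were within the ctrl range. The log2 fold change was 0.68 (0.35 to 1.00) in cKO versus ctrl, at an edgeR FDR of 0.0332. In dKO versus ctrl it was 0.54 (0.11 to 0.96), at an unadjusted *p* of 0.0117 and an edgeR FDR of 1. In cKO versus dKO it was 0.20 (−0.29 to 0.69), at an edgeR FDR of 1. Without litter 4, the dKO versus ctrl value was −0.16 and the cKO versus dKO value 0.73, with an unadjusted *p* of 0.00591 and an edgeR FDR of 0.511. The cKO versus ctrl value was then 0.57, at an edgeR FDR of 0.269. Adding litter to the fit gave 0.40 and an edgeR FDR of 0.999, and leaving out cKO mouse 5 or 7 or any of ctrl mice T3, T4, T5, S1 and S3 gave an FDR between 0.0563 and 0.299 at values of 0.64 to 0.71. The mice of litter 4 also stood apart in a gene outside the p53 pathway. *Filip1l* was at 20.5, 98.4 and 207 CPM in F3, F1 and F7, and at most 8.89 CPM elsewhere. The part of litter, depth or tissue composition in the *Plk2* level was not tested.

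**Figure D3:**
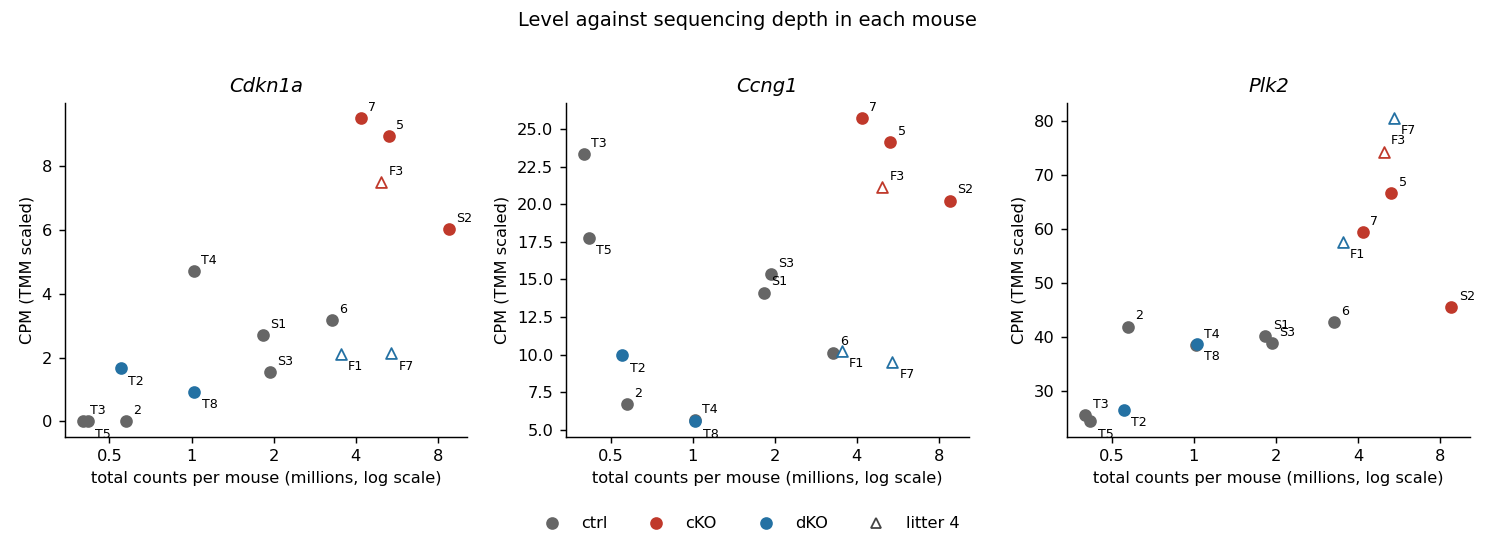
Level of *Cdkn1a*, *Ccng1* and *Plk2* (y axis, TMM-scaled CPM, axis from 0 for *Cdkn1a* alone) against total counts per mouse (x axis, log scale). Each point is a mouse, named and colored by group, and triangles are litter 4. F7 (dKO) lies beside the cKO mice in depth and below them for *Cdkn1a* and *Ccng1*, but above them for *Plk2*.

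*Mdm2*, *Ppm1d* and *Trp53inp1* did not pass the FDR threshold in any comparison. *Mdm2* (chromosome 10 from 117688875 to 117710758) was between 68.7 and 86.7 CPM in ctrl, 69.1 and 85.8 CPM in cKO and 73.0 and 89.6 CPM in dKO. The log2 fold change of *Mdm2* was 0.036 (−0.21 to 0.28) in cKO versus ctrl and 0.072 (−0.21 to 0.36) in cKO versus dKO. The upper bounds are 1.22-fold and 1.28-fold, below the difference of *Ccng1*. Under other scalings or sets of mice the sign of these *Mdm2* values turned, without an FDR below 0.05 in any. *Ppm1d* (chromosome 11 from 85311244 to 85347066) was between 25.2 and 44.4 CPM in ctrl, 29.3 and 41.5 CPM in cKO and 26.4 and 38.1 CPM in dKO. Its log2 fold change was 0.044 (−0.28 to 0.37) in cKO versus ctrl and 0.16 (−0.21 to 0.53) in cKO versus dKO. *Trp53inp1* (chromosome 4 from 11156431 to 11174379), whose product promotes p53 phosphorylation, had a median of 57.1 CPM in ctrl, 54.6 CPM in cKO and 50.6 CPM in dKO. Its log2 fold change was 0.11 (−0.21 to 0.42) in cKO versus ctrl and 0.29 (−0.056 to 0.63) in cKO versus dKO. The groups overlapped for all 3 genes.

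*Btg2* (chromosome 1 from 134075170 to 134079120) encodes an antiproliferative protein that in the cortex marks progenitors about to make neurons. It was the gene of the 10 with a negative value in all 3 comparisons. It lay between 21.5 and 40.0 CPM in ctrl, 20.5 and 31.2 CPM in cKO and 16.1 and 37.0 CPM in dKO, with all groups overlapping. The log2 fold change was −0.23 (−0.61 to 0.14) in cKO versus ctrl and −0.016 (−0.50 to 0.47) in cKO versus dKO, the latter turning sign in some alternatives. Beside it, the 6 intermediate progenitor markers summed to between 131 and 196 CPM in ctrl, 70.3 and 135 CPM in cKO and 101 and 145 CPM in dKO. Of these 6 markers, *Eomes* and *Neurog2* passed an FDR of 0.05 and were lower in cKO than in ctrl. None of the 6 was at 0 over a group. The part of progenitor number in the *Btg2* level was not tested.

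The sestrins and *Zmat3* had higher means in cKO than in both other groups, without passing the FDR threshold. *Sesn2* (chromosome 4 from 132492032 to 132510501) encodes a leucine sensor that restrains mTORC1. Its ctrl levels were 1.68, 2.22, 3.80, 2.56, 2.33, 0 and 2.22 CPM. Levels were 6.09, 5.00, 6.48 and 2.05 CPM in cKO mice 5, 7, S2 and F3. The dKO mice T2, T8, F1 and F7 had 1.66, 4.62, 2.11 and 1.55 CPM. The 3 cKO mice of batch 1 were above every ctrl and dKO mouse, and F3, of batch 3, was level with its dKO littermates. Its log2 fold change was 1.10 (0.23 to 1.97) in cKO versus ctrl and 1.18 (0.24 to 2.12) in cKO versus dKO, with unadjusted *p* of 0.00886 and 0.0124 and edgeR FDR of 0.566 and 0.837. With batch as a covariate the cKO versus dKO value was −0.047, and within batch 3 it was −0.14. *Zmat3* (chromosome 3 from 32334792 to 32366014), an RNA-binding regulator of splicing, was between 34.1 and 51.1 CPM in cKO, 14.0 and 46.7 CPM in ctrl and 23.1 and 38.1 CPM in dKO. Its log2 fold change was 0.41 (0.058 to 0.76) in cKO versus ctrl and 0.48 (0.11 to 0.85) in cKO versus dKO, with unadjusted *p* of 0.0212 and 0.0112 and edgeR FDR of 0.846 and 0.830.

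*Sesn1* (chromosome 10 from 41809935 to 41908424) lay close together in cKO, at 127, 124, 125 and 126 CPM in mice 5, 7, S2 and F3. The dKO mice were at 103, 117, 109 and 117 CPM, each below each cKO mouse. The ctrl mice ran from 71.1 to 129 CPM, with the lowest values in the shallow mice T3 and T5. The log2 fold change was 0.18 (−0.069 to 0.42) in cKO versus dKO and 0.24 (−0.014 to 0.50) in cKO versus ctrl, with an edgeR FDR of 1 for both. The exact permutation test over mice gave *p* = 0.0286 for cKO versus dKO, the smallest it can give, as for *Cdkn1a*. In all, 30 such single-gene tests were made, and their *p* values are unadjusted. *Sesn1* and *Sesn2* each overlap another listed gene model, so part of their reads may have gone uncounted as ambiguous or to the other model.

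**Figure D4:**
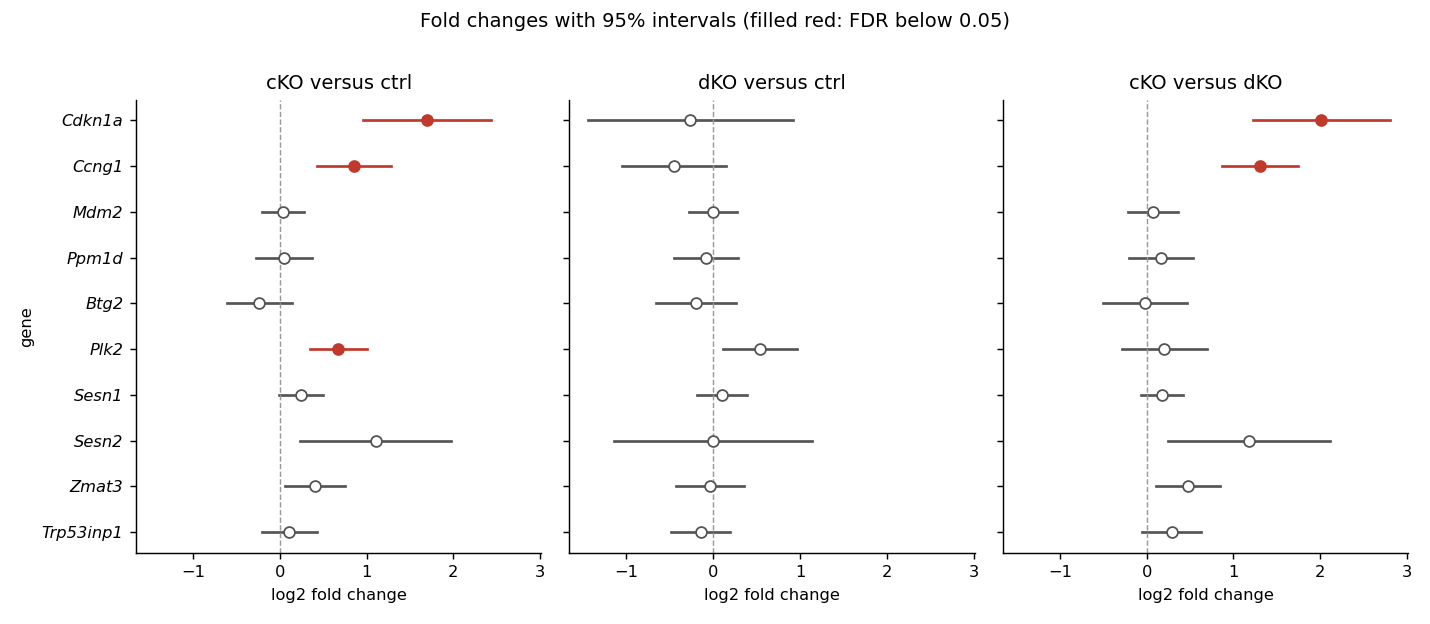
Log2 fold change (x axis) with 95% interval of each of the 10 genes in the 3 comparisons; filled red points have an FDR below 0.05. *Cdkn1a* and *Ccng1* are red in cKO versus ctrl and in cKO versus dKO, *Plk2* in cKO versus ctrl, and no gene in dKO versus ctrl.

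Over the 10 genes, 3 passed the FDR threshold as higher in cKO versus ctrl, against 0.189% of the 14259 genes with a mean of at least 1 CPM in these mice. Each of the 10 had such a mean in every group. In cKO versus dKO, 2 of the 10 passed, against 0.0631% of 14269 genes. The study had already named *Cdkn1a* and *Ccng1* as higher in cKO from these same mice. These shares are therefore descriptions and not independent evidence. In dKO versus ctrl, 0 of the 10 passed as higher with edgeR, against 0.173% of 14466 genes. DESeq2 gave an adjusted *p* in that comparison to *Sesn1* alone (0.941), so it could call none of the other 9. At an unadjusted *p* below 0.05, 5 of the 10 were higher in cKO versus ctrl (5.83% of all) and 4 in cKO versus dKO (2.42% of all). In dKO versus ctrl, only *Plk2* was (3.89% of all). None of the 10 was lower at this level in any comparison. The cKO and ctrl levels did not overlap, with cKO higher, for 2 of the 10, *Cdkn1a* and *Plk2* (0.828% of all), nor the cKO and dKO levels for 3, *Cdkn1a*, *Ccng1* and *Sesn1* (2.54% of all). For *Cdkn1a* against ctrl this holds for observed levels only. The 0 counts of ctrl mice T3 and T5 allow up to 7.00 and 6.67 CPM, above cKO mouse S2 at 6.03 CPM. The median log2 fold change of the 10 was 0.32 in cKO versus ctrl, −0.061 in dKO versus ctrl and 0.25 in cKO versus dKO, beside 0.028, 0.022 and 0.034 over all these genes. Comparisons with the same mice in them are not independent. Of the 10, *Mdm2*, *Ppm1d*, *Btg2*, *Sesn1* and *Trp53inp1*, had no unadjusted edgeR *p* below 0.05 in any comparison.

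A list of 15 paralogs of the 10 genes was read beside them. Of these 15, such as *Trp53inp2* and *Ppm1a*, 0 passed the FDR threshold and 0 had an unadjusted *p* below 0.05 with edgeR in any of the 3 comparisons, and 0 did in p53 and its 11 regulators, such as *Atm* and *Chek1*. In cKO versus dKO, 12 of the 15 paralogs (median log2 fold change 0.11) and 11 of these 12 p53 genes (median 0.14) were above 0, beside 56.4% of all genes at a mean of at least 1 CPM. In cKO versus ctrl, 7 of 15 (median −0.013) and 6 of 12 (median −0.0064) were, beside 55.3%. *Atm*, the kinase that activates p53 after double strand breaks, had a log2 fold change of 0.28 (−0.0051 to 0.57) in cKO versus dKO and *Chek1*, a checkpoint kinase, 0.54 (−0.11 to 1.19). Of 12 p53 targets that act in cell death, 1 passed, *Fas*, a death receptor, in cKO versus dKO (edgeR FDR of 0.0393). *Fas* had 28 counts over the 4 cKO mice and 0 over the 4 dKO mice, so it was at least 4.21-fold higher in cKO (3 counts over the group as the floor). At an unadjusted edgeR *p* below 0.05, 5 of these 12 were higher in cKO versus ctrl and 5 in cKO versus dKO. The shares over all genes with a mean of at least 1 CPM were 5.83% and 2.42%. Among those called in both were *Fas*, *Pmaip1* and *Tnfrsf10b*, with at most 9, 19 and 20 counts in any mouse. The median log2 fold change of the 12 was 0.21 and 0.39. Of 18 p53 targets in DNA repair and metabolism, 0 passed. At an unadjusted *p* below 0.05, 1 was higher in cKO versus ctrl, *Phlda3* at 1.71 (0.57 to 2.86), and 2 were higher in cKO versus dKO. The latter were *Phlda3*, an inhibitor of Akt, at 1.07 (0.060 to 2.09), and *Polk*, a translesion polymerase, at 0.40 (0.0041 to 0.80). Their median was 0.17 in cKO versus ctrl and −0.021 in cKO versus dKO.

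Another 6 p53 targets that the study named from these mice, *Ano3*, *Eda2r*, *Pvt1*, *Map3k20*, *Dglucy* and *Trp53cor1*, passed in 6 of 6 cases in cKO versus ctrl and 5 of 6 in cKO versus dKO. As they were chosen on these samples, their count is not independent evidence of a direction. Their log2 fold changes in cKO versus ctrl ran from 0.74 to 3.04, so *Cdkn1a* at 1.70 lay inside that range and *Plk2* at 0.68 below it.

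**Figure D5:**
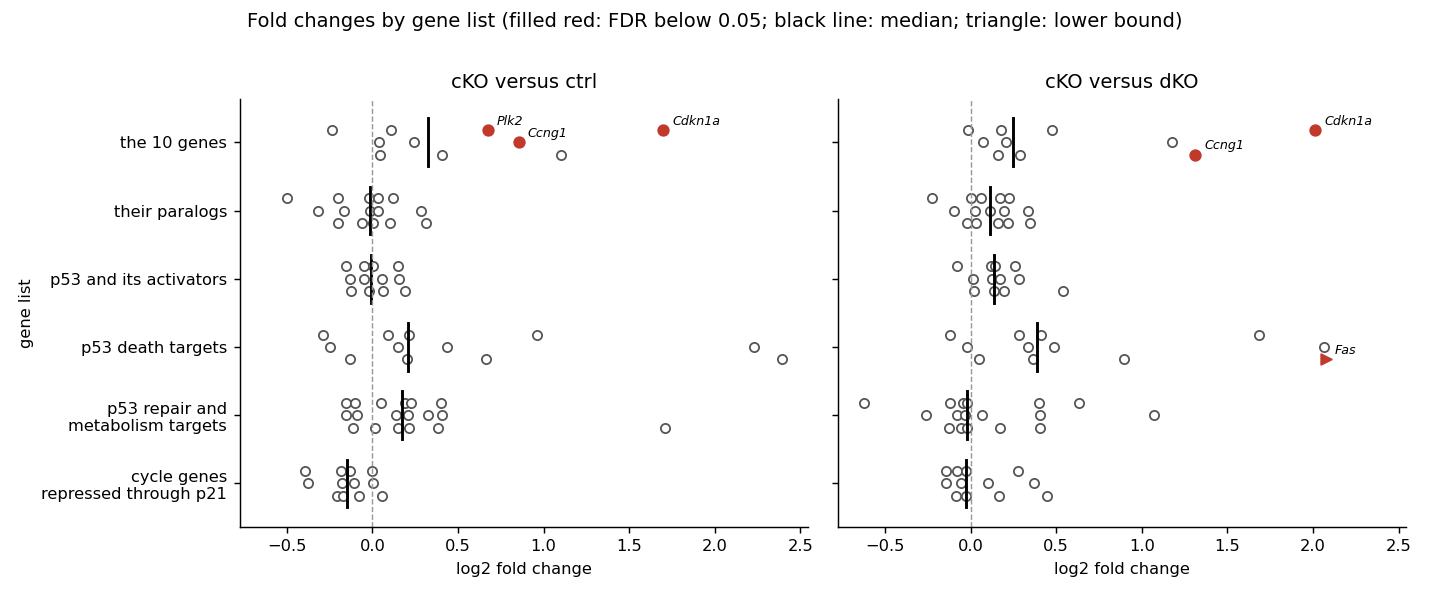
Log2 fold change (x axis) of single genes by list (y axis) in cKO versus ctrl and cKO versus dKO; filled red points have an FDR below 0.05, black lines are medians and the triangle is the lower bound for *Fas*. *Ptprv*, with 3 counts in cKO and 0 in dKO, is not drawn in cKO versus dKO. No paralog or regulator of p53 is red, and their medians in cKO versus dKO are 0.11 and 0.14. Genes that stand to the right include *Cdkn1a*, *Sesn2*, *Ccng1*, *Phlda3* and single death targets.

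Genes downstream of p21 were also read. Of 12 cell cycle genes that p21 is known to repress, 0 passed in any comparison with edgeR, and at an unadjusted *p* below 0.05 1 did, *Ccna2* (cyclin A2), lower in dKO versus ctrl at −0.63 (edgeR FDR of 0.853). In cKO versus dKO, *Ccna2* had a log2 fold change of 0.45 (−0.034 to 0.93) and *Cdk1* of 0.37 (−0.16 to 0.90). In cKO versus ctrl, they had −0.20 (−0.63 to 0.22) and −0.17 (−0.66 to 0.32). The median of the 12 was −0.15 in cKO versus ctrl and −0.028 in cKO versus dKO. *Plk2*, *Btg2* and *Sesn2* can also be raised without p53, by the signals behind immediate early genes or by the integrated stress response. Lists of 12 immediate early genes and 6 integrated stress genes had 0 genes at an FDR below 0.05 with edgeR. Each list had 1 gene at an unadjusted edgeR *p* below 0.05 in cKO versus ctrl and in dKO versus ctrl. In the first list this was *Fos*, at 2.08 (−0.86 to 5.01) and 2.61 (−0.59 to 5.82). *Fos* had at most 6 counts in any mouse. Of the 6 integrated stress genes, 5 were above 0 in cKO versus ctrl (median 0.38) and 5 in dKO versus ctrl (0.58). In cKO versus dKO 0 of them were (−0.21). Of the 12 immediate early genes, 6, 8 and 2 were above 0 in these comparisons, in the same order. *Egr2* (−1.33) and *Jun* (−0.28) of the first and *Ddit3* (−0.58) and *Trib3* (−0.99) of the second had the smallest *p* in cKO versus dKO, none of them below 0.05. *Egr2* rests on 2 counts over the cKO mice and 3 over the dKO mice (interval −4.08 to 1.41). *Trib3* had at most 3 counts in any mouse (−3.61 to 1.63). *Atf4*, the transcription factor of the integrated stress response, had an unadjusted *p* of 0.0444 in cKO versus ctrl, at 0.34, and of 0.0331 in dKO versus ctrl, at 0.41. The 6 interneuron markers, of cells born outside the cortex, summed to between 712 and 873 CPM in cKO, 382 and 806 CPM in ctrl and 542 and 782 CPM in dKO. *Gad1* passed as higher in cKO versus ctrl. All 6 were above 0 in cKO versus ctrl (median log2 fold change 0.39) and in cKO versus dKO (0.40). At an unadjusted edgeR *p* below 0.05, 5 and 4 of them were higher. In dKO versus ctrl, 4 of the 6 were above 0 (median 0.097) and 0 were higher at that level. None of the 6 was at 0 over a group. Sums of other markers ran from 56.5 to 152 CPM for endothelium, from 0 to 84.0 CPM for meninges (at most 4.88 CPM in cKO) and from 7.53 to 27.5 CPM for erythroid cells. Radial glia markers summed to 415 to 691 CPM in ctrl, 449 to 574 CPM in cKO and 464 to 640 CPM in dKO, and excitatory neuron markers to 2004 to 2598 CPM, 2246 to 2822 CPM and 2213 to 2604 CPM. Of the 7 radial glia markers with counts, 0 were above 0 in cKO versus ctrl (median −0.31). At an unadjusted edgeR *p* below 0.05, 3 of them were lower there. In cKO versus dKO 2 of the 7 were above 0 (median −0.19), and 0 were lower at that level. Of the 6 excitatory neuron markers with counts, 5 were above 0 in cKO versus ctrl (median 0.12). The erythroid gene *Hba-a2* passed as higher in dKO versus ctrl. The part of this composition in the levels of the 10 genes was not tested.

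Over the 15 mice, Pearson's r of log2 CPM between pairs of them ran from −0.73 (*Plk2* and *Btg2*) to 0.85 (*Sesn1* and *Cdkn1a*), with a median of 0.19 over the 45 pairs. The mean log2 CPM of the 10 had r = 0.84 with the log10 total count of the mouse. Of 9170 other genes with a mean of at least 10 CPM, the 5 most like this mean were *Mapk8* (r = 0.90), *Vcan* (0.86), *Rb1* (0.84), *Zswim6* (0.84) and *Rapgef2* (0.83). Their own r with the log10 total was between 0.59 and 0.88. These points share libraries, depth and litters, so the values are descriptions over 15 mice and carry no *p*. For the effect of sex, the genotype by sex term in cKO and ctrl mice had an edgeR FDR below 0.05 for 0 of the 10 genes and an unadjusted *p* below 0.05 for 0, with 9 genes passing in the whole table. The cKO males were 5 and F3, and the cKO females 7 and S2. The log2 estimates, male minus female, ran from −1.30 for *Sesn2* to 1.06 for *Cdkn1a* (unadjusted edgeR *p* of 0.132 and 0.164). With so few mice, the 0 does not show that the sexes are alike.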

How the data were processed

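E15.5 cortex of 15 mice was measured by UMI Click-seq of rRNA-depleted RNA. The authors trimmed reads with cutadapt 1.13, aligned them with STAR 2.5.2a to GRCm38/mm10, collapsed UMI copies with UMI-tools 0.5.3 and counted reads per gene with htseq-count 0.6.1p1. The counts they deposited are whole numbers per gene and library, not normalized. The feature type and strand setting are not given in the sources used here. The 5 summary lines of each file were left out. Of the 51912 listed genes, 51719 matched a GENCODE annotation of GRCm38, and coordinates are counted from 1. Whether intronic reads were counted is not known, so levels were not compared between genes.

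Groups were taken from the labels, and libraries S2 and S2b were added. Each pair of groups was fitted over all listed genes with edgeR 4.0.16 (TMM, estimateDisp, glmFit, glmLRT, no covariate) with Benjamini–Hochberg adjustment, and the code was tested on simulated counts. CPM used TMM factors over all mice. Single genes were also compared by two-sided exact permutation tests over mice on log2 CPM with a prior count of 2. Intervals are 95% Wald intervals. The mice are separate animals. Depth, given as the total counts per mouse, sets the precision. In the shallowest mouse 3 counts are 7.00 CPM and in the deepest 0.341 CPM.

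The 10 genes and the other lists were chosen with earlier results of these data known. Named from each list are the genes at an FDR below 0.05 in a comparison, or the 2 with the smallest *p* in cKO versus dKO, and the 5 genes most like the mean of the 10. *Atf4*, *Filip1l*, *Fos*, *Pmaip1* and *Tnfrsf10b* were named after their values were seen. Alternatives were the quasi-likelihood F test, DESeq2 1.42.0, RLE factors, filterByExpr, all groups in 1 fit, batch, litter or sex as covariate, 1 batch only, wild-type ctrl only, 1 library of S2, thinning to 399832 counts, a prior count of 0.5, CPM without TMM, and leaving out each mouse. Leaving out litter 4 and leaving out mice of under 600000 counts were chosen after seeing the data. No sample or count column was left unused. The microglia marker list is not reported here.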

Additional observations from a re-analysis of the deposited data

Results flagged for a closer look

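In the dKO group, mouse T8 lay far from the other 3 mice for 2 of the 10 genes. *Ccng1* was at 5.54 CPM in T8 and between 9.51 and 10.3 CPM in the others. *Mdm2* was at 89.6 CPM in T8 and between 73.0 and 74.6 CPM in the others. These are 2 of 30 groups checked, and chance marks about 1 in 20.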

How the results depend on the processing

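Over all listed genes, 83, 26 and 27 passed an FDR of 0.05 for cKO against ctrl, dKO against ctrl and cKO against dKO, and 3, 0 and 2 of the 10 genes did. *Cdkn1a* and *Ccng1* were higher in cKO in every alternative, but their calls were not kept in all of them. Thinning, fitting within a batch and adding batch as a covariate leave fewer counts or mice, or less of the genotype contrast. The cause of the changes was not tested, in these settings or in the others. Depth limits *Cdkn1a* and *Sesn2* most, since 3 counts are up to 7.00 CPM. Counts of genes and of the 10 at an FDR below 0.05 that moved, and log2 values that changed sign, follow by setting. With the quasi-likelihood F test, the values were 352 genes in cKO versus ctrl, 113 genes and *Mdm2* 0.0037 in dKO versus ctrl, 184 genes and *Btg2* 0.012 in cKO versus dKO. With DESeq2, the values were 138 genes and *Mdm2* −0.0018 in cKO versus ctrl, 8 genes in dKO versus ctrl, 7 genes and 1 of the 10 in cKO versus dKO. With RLE factors, the values were 1 of the 10 and *Mdm2* −0.0062 in cKO versus ctrl, *Sesn2* −0.0079 in dKO versus ctrl. With filterByExpr, the values were 138 genes, *Mdm2* −0.0086 and *Ppm1d* −0.00066 in cKO versus ctrl, 14 genes in dKO versus ctrl, 14 genes in cKO versus dKO. With all groups in 1 fit, the values were 49 genes in cKO versus ctrl, 14 genes and *Sesn2* −0.041 in dKO versus ctrl, 14 genes in cKO versus dKO. With batch as covariate, the values were 1 of the 10 in cKO versus ctrl, 17 genes, *Mdm2* 0.021, *Zmat3* 0.086 and *Trp53inp1* 0.061 in dKO versus ctrl, 3 genes, 0 of the 10, *Mdm2* −0.13 and *Sesn2* −0.047 in cKO versus dKO. In batch 1 only, the values were 13 genes and 0 of the 10 in cKO versus ctrl. With wild-type ctrl only, the values were 16 genes and 1 of the 10 in cKO versus ctrl, 17 genes and *Sesn2* −0.24 in dKO versus ctrl. Thinned to 399832 counts, the values were 24 genes, 0 of the 10, *Mdm2* −0.076 and *Ppm1d* −0.081 in cKO versus ctrl, *Mdm2* 0.0070 and *Ppm1d* 0.068 in dKO versus ctrl, 1 gene, 0 of the 10, *Mdm2* −0.088, *Ppm1d* −0.15 and *Btg2* 0.11 in cKO versus dKO. Without litter 4, the values were 33 genes and 1 of the 10 in cKO versus ctrl, 0 genes, *Mdm2* 0.11, *Ppm1d* 0.065, *Btg2* 0.17 and *Plk2* −0.16 in dKO versus ctrl, 72 genes, 1 of the 10 and *Mdm2* −0.015 in cKO versus dKO. Without mice of under 600000 counts, the values were 52 genes in cKO versus ctrl, *Mdm2* 0.0053, *Sesn1* −0.031 and *Sesn2* −0.0020 in dKO versus ctrl, 62 genes in cKO versus dKO. With litter as covariate, the values were 4 genes, *Mdm2* 0.14, *Ppm1d* 0.11 and *Zmat3* 0.013 in dKO versus ctrl, 0 of the 10, *Mdm2* −0.066 and *Btg2* 0.22 in cKO versus dKO. In batch 3 only, the values were *Mdm2* 0.0052, *Zmat3* 0.072 and *Trp53inp1* 0.050 in dKO versus ctrl, 1 gene, 0 of the 10, *Mdm2* −0.14 and *Sesn2* −0.14 in cKO versus dKO. With sex as covariate, the values were 44 genes in cKO versus dKO. With library S2b alone, the values were *Btg2* 0.0027 in cKO versus dKO. In CPM without TMM, the values were *Mdm2* −0.082 and *Ppm1d* −0.038 in cKO versus ctrl, *Mdm2* −0.021 in dKO versus ctrl, *Mdm2* −0.061 and *Ppm1d* −0.0064 in cKO versus dKO. Leaving out TMM shifted all genes alike, *Mdm2* from 0.044 to −0.082 in cKO versus ctrl. Leaving out 1 mouse at a time gave 17 to 373 genes in cKO versus ctrl, 17 to 59 in dKO versus ctrl and 6 to 179 in cKO versus dKO, and 1 to 3, 0 and 2 of the 10. Only *Cdkn1a* was left without cKO mouse 5, 7 or F3 or ctrl mouse S1 or T4. Log2 values that changed sign in these fits ran from −0.0021 to 0.10 for *Mdm2* in cKO versus ctrl, from −0.039 to 0.14 for *Ppm1d* in cKO versus ctrl, from −0.034 to 0.18 for *Trp53inp1* in cKO versus ctrl, from −0.33 to 0.27 for *Sesn2* in dKO versus ctrl, from −0.071 to 0.042 for *Mdm2* in dKO versus ctrl, from −0.11 to 0.052 for *Zmat3* in dKO versus ctrl, from −0.16 to 0.066 for *Ppm1d* in dKO versus ctrl, from −0.40 to 0.052 for *Btg2* in dKO versus ctrl, from −0.24 to 0.19 for *Btg2* in cKO versus dKO. *Cdkn1a* and *Sesn2* in dKO versus ctrl and *Sesn2* in cKO versus ctrl did not pass filterByExpr and have no value there. No analysis paired by replicate number was possible because the groups share none, and mice of the same litter were compared in the fit with litter as a covariate.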
